A study of Mus musculus with 8 samples.

Results

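The genes described here encode the killing machinery and the activity receptors of cytotoxic lymphocytes. They are the granzymes Gzma and Gzmb, the pore-forming protein Prf1, the granule membrane protein Nkg7, the death ligand Fasl, the receptors Klrg1, Klrk1 and Klrd1, and the chemokine Ccl5. They were chosen by name, and every peak carrying one of the 9 symbols in either of the 2 deposited peak lists was taken. Of the 9 genes, 7 held at least 1 peak, with 18 peaks in all, out of 12413 genes and lists of 29586 control and 23368 PTC peaks. The authors' deposited summary table counts fewer peaks, 19420 for control and 15855 for PTC, and the filter behind its counts is not given in the sources used here, so the full lists were used. Klrg1 and Ccl5 were matched by symbol and by gene identifier and held no peak in either list.

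The study mapped N6-methyladenosine (m6A), a methyl mark on adenosines inside messenger RNA, in mouse primary T cells. Control cells and cells given an agent labelled PTC, which the labels do not describe, were compared at 24 h. The control immunoprecipitate, PTC immunoprecipitate, control input and PTC input groups had 2 samples each, 8 in all. All cells were grown in medium with serum and antibiotics. The labels give no strain, genotype, sex, age or sorting step, do not say how or whether the T cells were activated, and do not tell whether the samples of a group are separate animals, cultures or preparations. The authors deposited 1 peak list per condition and no values per sample, so nothing below has a replicate check, and no test between conditions could be made. The fold enrichment (taken as immunoprecipitate over input), the p-value and the false discovery rate (FDR) of each peak are the authors' own, read depth is unknown, and these values describe a peak within its list only.

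Cytotoxic T cells and natural killer cells kill by releasing granules at the contact with a target cell. Perforin opens the target membrane, granzymes are serine proteases that enter and start cell death, and Fas ligand starts death from outside through its receptor Fas. Klrk1 encodes the activating receptor NKG2D, Klrd1 encodes CD94, the partner chain of the NKG2 receptors, and Klrg1 encodes an inhibitory receptor for cadherins. m6A is written by the Mettl3 and Mettl14 complex within the 5-base consensus DRACH, whose middle A is methylated, follows a purine (R) and stands before a C; D is any base but C and H any base but G. The mark is most often found near stop codons and in 3' UTRs, and is known to affect how long an mRNA lasts and how it is translated.

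The sequences under these peaks are shown first. The number of GGAC cores, the commonest core of methylated DRACH sites, differs widely among the genes, as does the length of their peaks. All are from GENCODE M21 transcripts (GRCm38), 5′ to 3′ on the gene's own strand. The Prf1 stretch lies in the coding part of exon 3, under peaks of both lists, and has the most GGAC (capitals) of any 120 coding bases of these genes that lie under peaks of both lists. The Gzmb stretch was chosen in the same way. The Gzma stretch is its whole peak, which has no GGAC, so its DRACH matches are in capitals. The Nkg7 stretch is the part of the 5' UTR with both of its GGAC.
Prf1, chr10:61303589-61303708, plus strand: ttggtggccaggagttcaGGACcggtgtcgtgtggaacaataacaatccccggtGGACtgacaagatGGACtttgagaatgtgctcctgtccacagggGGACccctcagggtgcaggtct
Gzmb, chr14:56261110-56261229, minus strand: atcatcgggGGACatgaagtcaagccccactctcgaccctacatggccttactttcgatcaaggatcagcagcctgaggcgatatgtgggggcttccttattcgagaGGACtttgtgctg
Gzma, chr13:113095821-113095998, minus strand: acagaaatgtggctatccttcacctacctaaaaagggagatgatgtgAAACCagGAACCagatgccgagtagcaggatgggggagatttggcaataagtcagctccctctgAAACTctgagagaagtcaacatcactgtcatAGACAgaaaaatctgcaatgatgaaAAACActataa
Nkg7, chr7:43437144-43437172, plus strand: cagacagaGGACtcctGGACaaagccgct

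Some of the 9 GGAC sites in 3' UTRs are shown as 21 bases with the 5 bases of the motif in capitals. Gzmb has 4 such sites and Prf1 has 2, and not all of these are printed. Both Klrk1 sites, the Fasl site and the printed Gzmb site lie under peaks of both lists, while the last Prf1 site lies under the control peak only.
Klrk1 proximal site, chr6:129612713-129612733, minus strand: agaaattgGGACTaagaagaa
Klrk1 distal site, chr6:129612114-129612134, minus strand: cacagcagGGACCacagggag
Fasl site, chr1:161781333-161781353, minus strand: tgactgagGGACAtaaagctt
Gzmb site, chr14:56259313-56259333, minus strand: tgaataaaGGACTgcaaagac
Prf1 last site, chr10:61304601-61304621, plus strand: gtaatgtgGGACTgcaatccc

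Across the 7 genes, the peaks held 139 DRACH sites, of which 95 lay under peaks of both lists, 33 under control peaks only and 11 under PTC peaks only. Of the 33, Prf1 held 16, and Gzma and Nkg7, which had no PTC peak, held 5 and 3. Over all genes in both lists 68% had more bases under control peaks. No share of sites over all peaks stands beside this split, so no loss of sites is read from it. Of the 29 GGAC, 21 were under peaks of both lists, and of the 11 GGACT, 9 were. Prf1 and Gzmb accounted for 12 and 11 of the GGAC, and Fasl, Klrk1 and Nkg7 for 2 each. The bases searched differ as well: control peaks covered 2275 nt of Prf1 and 1197 nt of Gzmb, but 149 nt of Nkg7. Per 100 nt of control peak, Nkg7 had 1.34 GGAC, Gzmb 0.835, Prf1 0.685 (exon 3) and 0 (exon 2), and Fasl 0.224. The 2 control peaks of Klrk1 had 0.552 and 0.303. The density was 0.520 over the 9 control peaks of these genes and 0.438 over all control peaks. No GGAC was found under the peaks of Gzma and Klrd1. By region, 74 DRACH sites lay in coding sequence, 59 in 3' UTRs and 6 in 5' UTRs. These are matches of letters and not measured methylation sites.

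**Figure D1:**
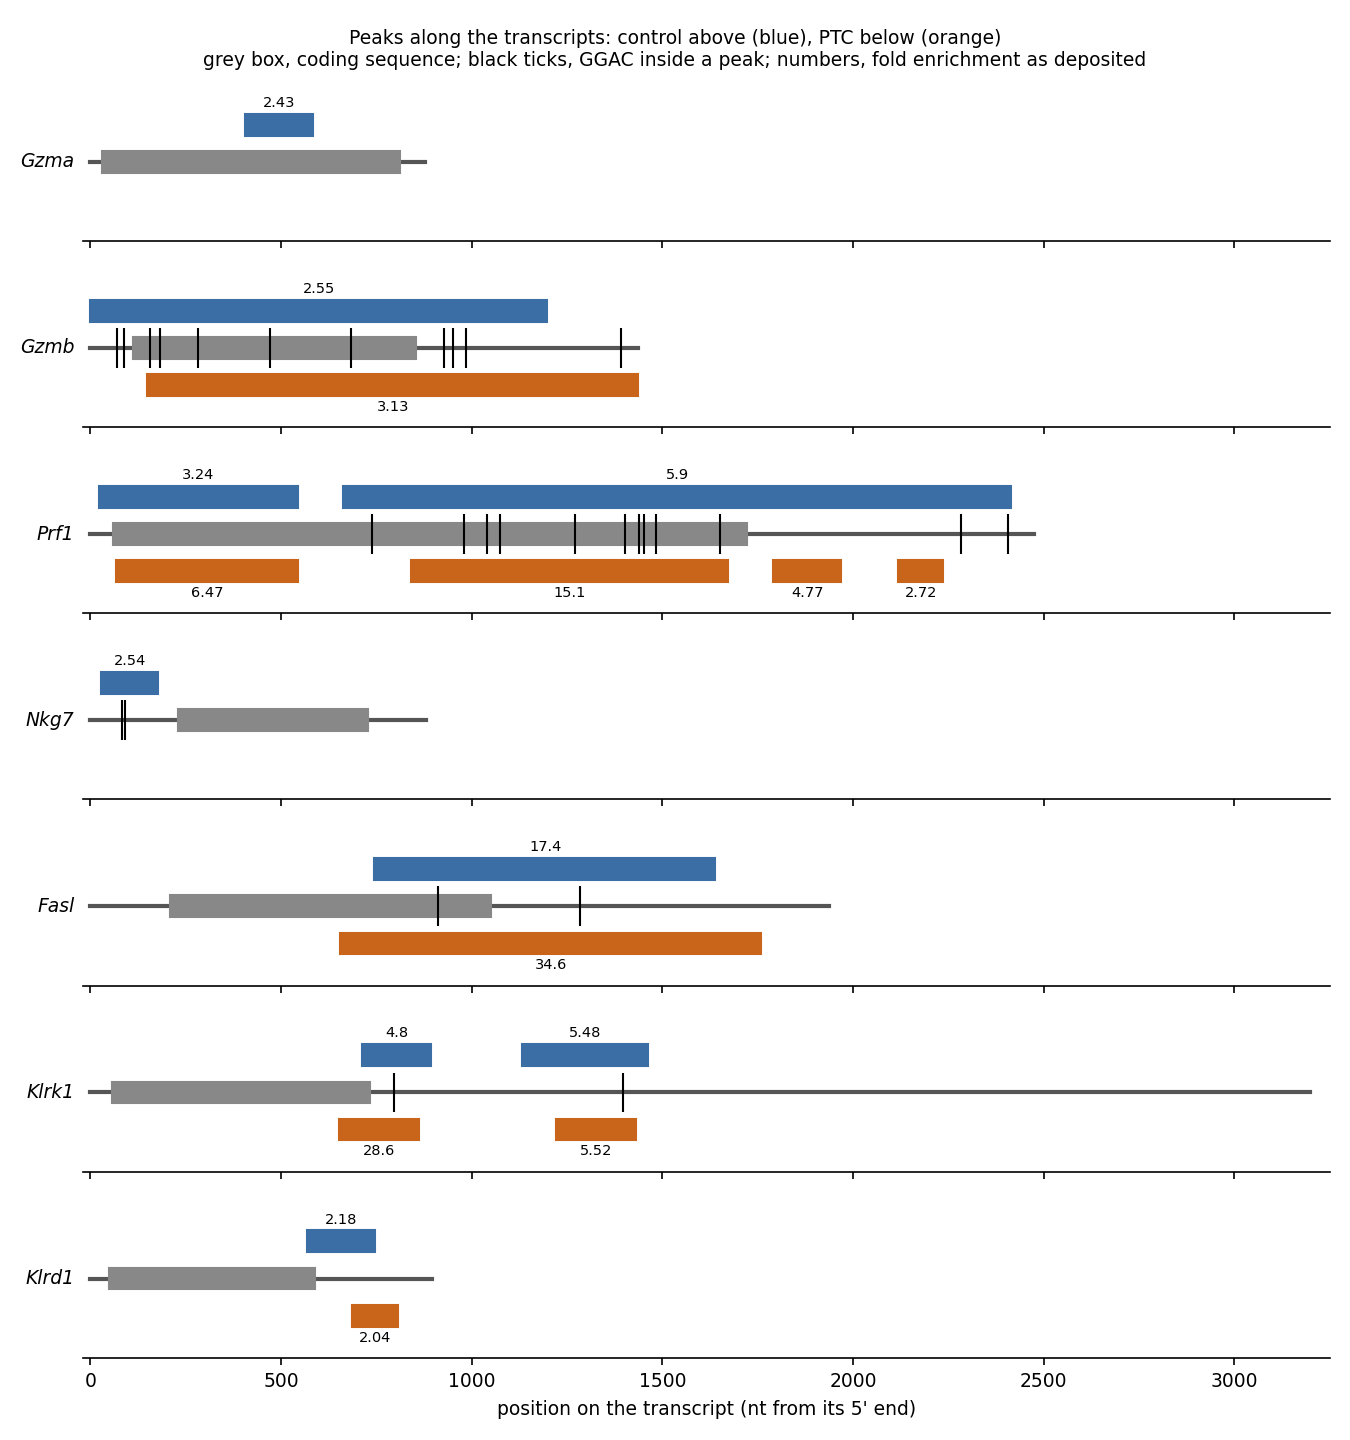
Positions of the peaks along the transcript of each of the 7 genes, in nt from its 5' end, with control peaks above and PTC peaks below; grey boxes are coding sequence, black ticks are GGAC inside a peak, and numbers are the deposited fold enrichments. Prf1 has 2 control and 4 PTC peaks, Gzmb 1 long peak in each list, and Gzma and Nkg7 a control peak only.

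Of the 7 genes with peaks, 5 (Gzmb, Prf1, Fasl, Klrk1 and Klrd1) were in both lists, and Gzma and Nkg7 were in the control list only; none was in the PTC list only. Over all 12413 listed genes the shares were 79.2% in both lists, 12.5% in the control list only and 8.24% in the PTC list only. A count of 2 among 7 genes is too small to tell it apart from these shares. Among protein-coding genes of the annotation 45.6% had a peak in either list. The 7 genes had 9 control and 9 PTC peaks. Of these, 7 control peaks and all 9 PTC peaks were overlapped by at least 1 bp by a peak of the other list. The shares were 60.2% of all control and 78.8% of all PTC peaks, and the counts are too small to set apart from them. Long peaks meet this rule more easily, and a Prf1 peak was longer than 97.6% of control peaks. With 50% of each peak shared, 5 control and 5 PTC peaks had a partner.

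Prf1 (ENSMUSG00000037202), which encodes perforin, had more of its mRNA under control peaks than any other of these genes. In the control list a 535 nt peak lay in exon 2 (chromosome 10, 61299898 to 61300432, plus strand) enriched 3.24-fold at a −log10 FDR of 12.4. Of its bases, 13 lay outside the coding transcript used here, and of the 2 coding transcripts annotated for Prf1, 1 held the whole peak. A second control peak covered 1753 nt of exon 3 (61302869 to 61304621), with 5.90 and 20.9, and ran through 1061 nt of coding sequence and 692 nt of 3' UTR. The PTC list had the exon 2 peak as well (61299957 to 61300432, 476 nt, fold enrichment 6.47, −log10 FDR 7.37). In place of the long exon 3 peak it had 3 shorter ones that all lay inside it.

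The longest of these PTC peaks covered 832 nt of coding sequence (61303047 to 61303878), with a fold enrichment of 15.1, higher than in 95.2% of PTC peaks, and a −log10 FDR of 18.8. The others were 179 nt (61303997 to 61304175, 4.77 and 3.64) and 119 nt (61304324 to 61304442, 2.72 and 2.53), both in the 3' UTR. Prf1 thus had more peaks in the PTC list and fewer bases under them: 2275 of 2474 nt (92.0%) lay under control peaks and 1606 nt (64.9%) under PTC peaks, and every PTC base was also under a control peak. Among the 9836 genes in both lists, 41.6% had more control peaks, 42.4% equal numbers and 16% more PTC peaks, and 7.16% had more PTC peaks with fewer bases under them. The stop codon of Prf1 lay under the control peak and between PTC peaks. Of its 53 DRACH sites 37 were under peaks of both lists and 16 under control peaks only. Of the 12 GGAC, 3 were under the control peak only, among them the last Prf1 site printed above.

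Gzmb (ENSMUSG00000015437), the granzyme that cleaves caspases and their substrates, had 1 peak in each list, running over all 5 exons. The control peak (chromosome 14, 56259077 to 56262260, minus strand) covered 1197 of 1436 nt, with a fold enrichment of only 2.55 and a −log10 p of 403, larger than in 99.9% of control peaks; its FDR was too small for the list to hold. The PTC peak (56258838 to 56262111) covered 1287 nt and was enriched 3.13-fold at a −log10 FDR of 170. Its −log10 p of 173 was larger than in 98.7% of PTC peaks. In both lists Gzmb therefore combined an extreme p-value with a fold enrichment below the list's median of 3.65 (control) and 3.66 (PTC). Peaks over 5 or more exon blocks made up 1.04% of the control and 0.479% of the PTC list.

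The 2 Gzmb peaks shared 1048 nt and differed at their ends. The control peak started at the first base of the mRNA and left the last part of the 3' UTR uncovered, while the PTC peak left out the 5' UTR and reached the last base. The control peak had 149 nt to itself at the 5' end and the PTC peak 239 nt at the 3' end. The 2 GGAC in the 5' UTR were under the control peak alone and 1 GGAC near the 3' end was under the PTC peak alone, and the other 8 were under both. All 3 GGACT were under both peaks, 2 in coding sequence and 1, the printed Gzmb site, 98 nt after the start of the stop codon. Gzmb belongs to a family of granzyme genes with similar sequences in the same chromosome region, and how reads with more than one alignment were counted is not given in the sources used here.

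Gzma (ENSMUSG00000023132), a granzyme with trypsin-like specificity, had 1 peak, in the control list. It covered 178 nt of coding sequence in exon 4 of 5 (chromosome 13, 113095821 to 113095998, minus strand), enriched 2.43-fold at a −log10 FDR of 4.17. Its p-value was smaller than that of 39.0% of control peaks, so it was among the weaker ones. It held 5 DRACH and no GGAC, which 51.8% of control peaks of like length (within 20%) contain.

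Nkg7 (ENSMUSG00000004612), a membrane protein of cytotoxic granules, also had 1 peak in the control list and none in the PTC list. It was 149 nt long and lay wholly in the 5' UTR of exon 1 (chromosome 7, 43437102 to 43437250, plus strand), enriched 2.54-fold at a −log10 FDR of 12.2. Its p-value was smaller than that of 71.9% of control peaks, but its fold enrichment was higher than that of only 26.2%. The control peak was thus not a weak one by p-value, but it was low by fold enrichment. It was the only one of the 18 peaks with its midpoint in a 5' UTR, where 5.44% of control and 5.29% of PTC midpoints in protein-coding genes lay. It held 3 DRACH, including 1 GGACT, which 14.7% of control peaks of like length contain. Of the 2 coding transcripts annotated for Nkg7, 1 held the whole peak.

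Fasl (ENSMUSG00000000817), the ligand of Fas, had the highest fold enrichment of these genes in each list. The control peak (chromosome 1, 161780987 to 161781880, minus strand) was 894 nt long, with 17.4, higher than 97.2% of control peaks, and its −log10 FDR was 22.6. In the PTC list the peak (161780868 to 161781970) was 1103 nt long, with 34.6, higher than 99.8% of PTC peaks, and its −log10 FDR was 9.09. The PTC peak enclosed the control peak, so that all 894 nt were shared and 209 nt were under the PTC peak alone. Both peaks ran across the stop codon in exon 4, with 305 nt (control) and 395 nt (PTC) in coding sequence and 589 nt and 708 nt in the 3' UTR. The midpoints were 144 and 159 nt after the start of the stop codon. All 21 DRACH of the control peak were also in the PTC peak, which held 26. Both GGAC were in both peaks, and no GGACT was found, although 65.9% of control and 73.6% of PTC peaks of like length contain one.

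Klrk1 (ENSMUSG00000030149), which encodes NKG2D, had 2 peaks in each list, all in exon 8, and each overlapped its counterpart. The proximal peak began before the stop codon, with 22 nt (control) and 82 nt (PTC) in coding sequence. In the control list it was 181 nt long (chromosome 6, 129612627 to 129612807, minus strand), enriched 4.8-fold at a −log10 FDR of 4.70. In the PTC list it was 211 nt long (129612657 to 129612867), with 28.6, higher than 99.5% of PTC peaks, and 7.15. The peaks shared 151 nt, and the proximal GGACT printed above lay in the shared part, 65 nt after the start of the stop codon. The PTC value thus paired a fold enrichment near the top of its list with a p-value smaller than that of only 52.2% of PTC peaks.

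The distal Klrk1 peak lay further down the 3' UTR, at 129612059 to 129612388 in the control list (330 nt, fold enrichment 5.48, −log10 FDR 3.11) and 129612089 to 129612298 in the PTC list (210 nt, 5.52, 2.66). The PTC peak lay inside the control peak, with the distal GGACC in both. Of the 3 coding transcripts annotated for Klrk1, 1 held the whole distal peak in its 3' UTR, while all 3 held the proximal one. The proximal peaks had 4.42 (control) and 3.79 (PTC) DRACH per 100 nt, the highest densities of the 18 peaks, against 2.13 and 2.20 over the 27707 control and 22332 PTC peaks with bases in a transcript used here, which are also the peaks that the shares of like length are drawn from.

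Klrd1 (ENSMUSG00000030165), which encodes CD94, had the weakest peak of these genes by p-value in each list. The control peak (chromosome 6, 129598448 to 129598626, plus strand, 179 nt) was enriched 2.18-fold at a −log10 FDR of 2.79, and its p-value was smaller than that of 18.1% of control peaks. The PTC peak (129598567 to 129598686, 120 nt) had 2.04 and 2.36, with 7.24% of PTC peaks having a larger p-value. Both lay in exon 6 after or across the stop codon and shared 60 nt. The 3 DRACH of the control peak lay outside the shared part, and the PTC peak held none, although 89.6% of PTC peaks of like length contain one. No other annotated gene overlapped any of the 18 peaks on either strand.

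**Figure D2:**
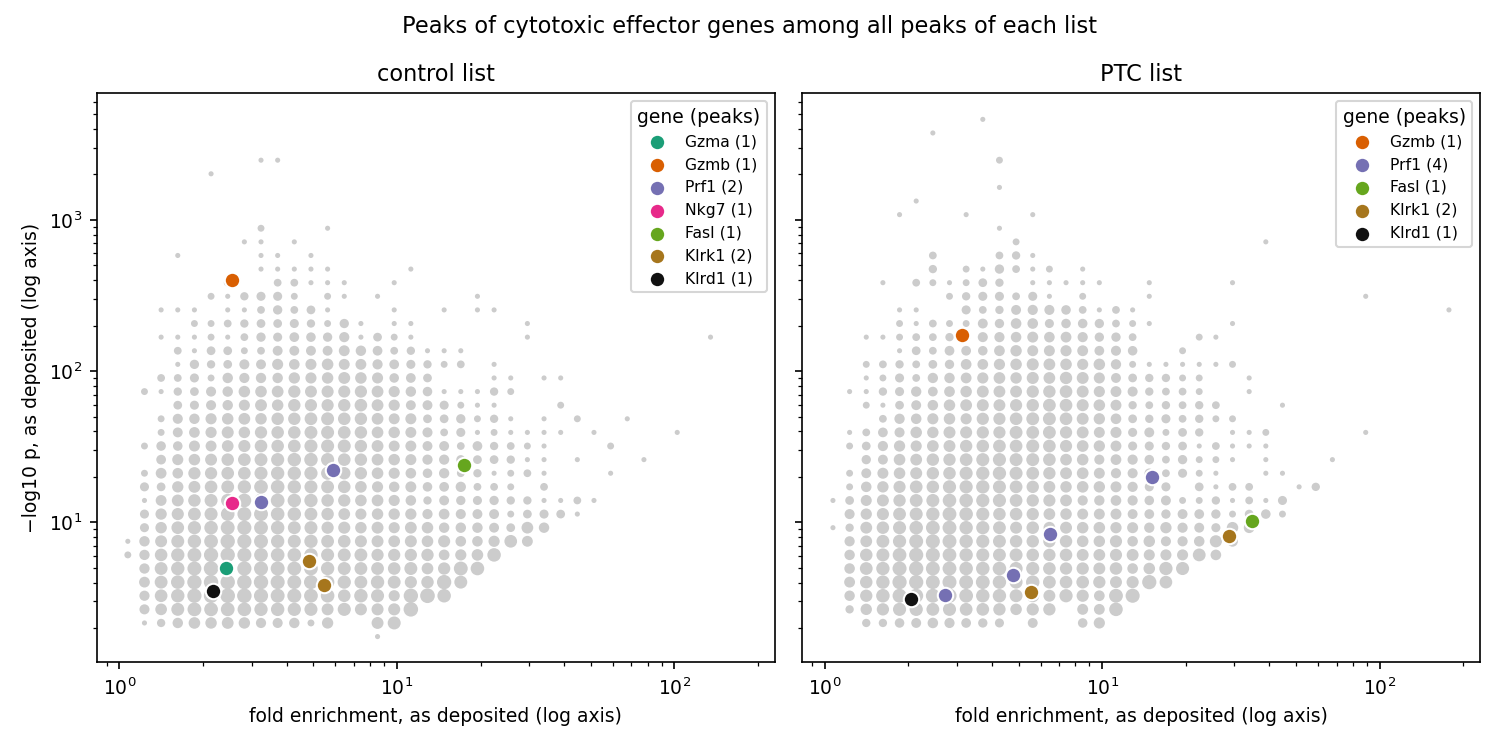
Deposited fold enrichment (x, log axis) against deposited −log10 p (y, log axis) for the peaks of the 7 genes in colour, 9 in each list, over all peaks of the list in grey, where each grey dot is a bin that grows with its number of peaks. Gzmb is far up at a low fold enrichment in both lists, and Fasl lies far to the right, joined in the PTC list by 1 Klrk1 peak.

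How the genes fell between the lists depended on how strong a peak had to be. With peaks of −log10 FDR 5 or more alone, Gzmb, Prf1 and Fasl were in both lists, Nkg7 was in control only and Klrk1 in PTC only, while Gzma and Klrd1 dropped out. Over all 9226 genes listed at that level, 79.5% were in both lists, 10.6% in the control list only and 9.86% in the PTC list only. With peaks enriched at least 4-fold, Prf1, Fasl and Klrk1 were in both lists and no gene was in a single list, beside 59.4%, 24.6% and 16% of 9421 genes. When the control list was shortened to its 23368 smallest FDR values to match the PTC list, Klrd1 lost its control peak, and Gzma and Nkg7 were still in control only, beside 78.8%, 7.53% and 13.6% of 11743 genes. Fasl and Prf1 were in both lists in each of these settings, and Gzmb in each but that of fold enrichment.

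In transcript position the peaks of these genes were spread over 5' UTR, coding sequence and 3' UTR. Of the 9 control midpoints, 1 lay in a 5' UTR, 4 in coding sequence and 4 in a 3' UTR, and of the 9 PTC midpoints, 3 in coding sequence and 6 in a 3' UTR. In protein-coding genes as a whole, coding sequence held 41.4% of the control and 40.2% of the PTC midpoints, and 3' UTRs held 44.5% and 48.5%. Within 200 nt of the stop codon lay 4 control and 5 PTC midpoints, those of Prf1 (control exon 3 peak, PTC 179 nt peak), Gzmb (PTC), Fasl, the proximal Klrk1 peak and Klrd1. The shares over all peaks of protein-coding genes were 15.2% and 20.6%, and counts of 4 and 5 among 9 are too small to set apart from them. The Prf1 control peak (1753 nt) and the Gzmb PTC peak (1287 nt) are much longer than this window. Their midpoints therefore do not place enrichment at the stop codon.

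The share of the mRNA under peaks divided the genes. Prf1 and Gzmb had 92.0% and 83.4% under control peaks, more than 99.0% and 97.4% of the 9371 coding genes in that list, whose median was 29.5%. Under PTC peaks Gzmb had 89.6%, Prf1 64.9% and Fasl 56.9%, against a median of 24.6% over 9077 coding genes. Klrk1 (16.0% control, 13.2% PTC) and Klrd1 (179 and 120 of 895 nt) were below the median in both lists, as were Gzma (20.3%) and Nkg7 (16.9%) in the control list. Of the 5 genes in both lists, Prf1, Klrk1 and Klrd1 had more bases under control peaks and Gzmb and Fasl more under PTC peaks. Over all genes in both lists 68% had more bases under control peaks. The share of Klrk1 is set against its longest coding transcript, of 3197 nt.

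**Figure D3:**
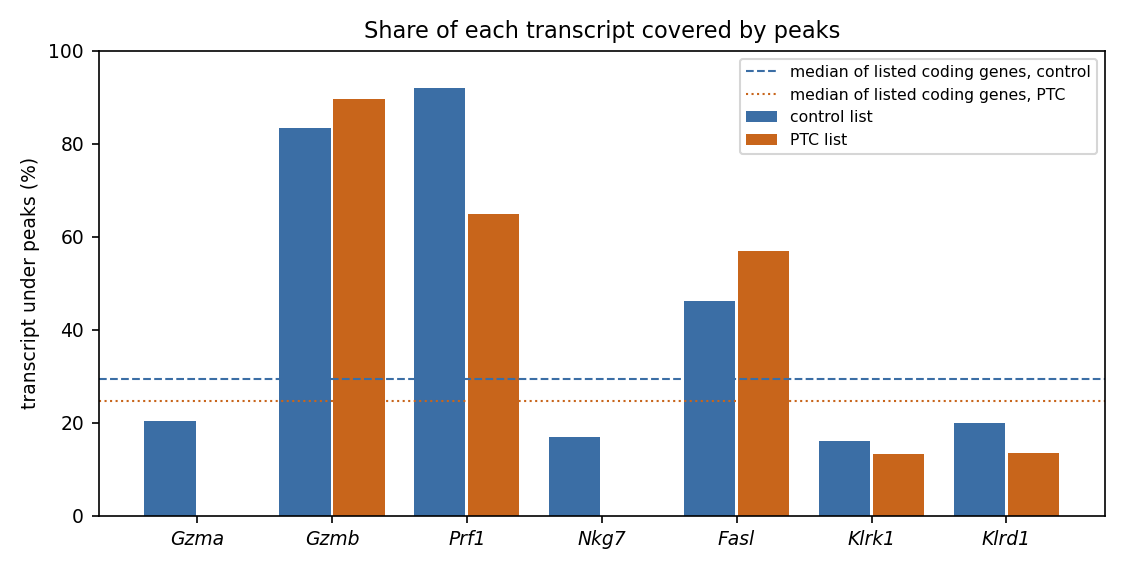
Percent of the transcript under peaks for each of the 7 genes, with control bars in blue and PTC bars in orange; lines are the medians over the protein-coding genes of each list (29.5% and 24.6%). Prf1, Gzmb and Fasl are above the median in both lists, and Gzma and Nkg7 have no PTC peak and so no PTC bar.

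The other genes of the killing pathway were described from 7 lists. Of 91 genes matched, 60 had a peak, beside 45.6% of all protein-coding genes of the annotation. Of these 60 genes, 50 were listed in both conditions, 6 in control alone and 4 in PTC alone. For comparison, 79.2%, 12.5% and 8.24% of all 12413 listed genes fell into these classes, so 50, 6 and 4 of 60 are near the background, and the counts of the single lists below are too small to set them apart from it. The transcription factors of cytotoxic cells (12 of 13, led by Klf2, Bhlhe40, Eomes and Bach2) and the death receptor genes (11 of 11, among them Casp8, Bid, Cflar and Tnf) were all in both lists where listed, as were 79.2% of all listed genes. Fas, the receptor of Fas ligand, had 2 peaks in each list (highest −log10 FDR 32.9 in control and 47.1 in PTC). Among other granule proteins 8 of 16 had a peak, 7 in both lists, including Srgn, the proteoglycan that packs granzymes (247 in control, too small an FDR to be held in PTC), and Serpinb9, the inhibitor of granzyme B (38.1 and 23.8). Cst7 was in control only (4.87). The 8 without a peak were all granzymes (Gzmc, Gzmd, Gzme, Gzmf, Gzmg, Gzmk, Gzmm and Gzmn). Of 10 granzyme genes looked for, Gzma and Gzmb alone were listed, beside 45.6% of all protein-coding genes. Whether so few genes differ from that share was not tested. How reads aligning to several similar granzyme genes were counted is not given, so a missing peak there is not read as missing methylation.

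Granule exocytosis genes all had a peak, beside 45.6% of all protein-coding genes. Of the 11, 7 were in both lists, such as Lyst, Stx11, Rab27a and Vamp8, beside 79.2% of all listed genes. Stxbp2 (−log10 FDR 5.01), Stx7 (4.31) and Ap3b1 (4.03) were in control only, and Arl8b (6.76) was in PTC only. Of the other natural killer receptors and adaptors 8 of 22 had a peak, beside the same 45.6%. Whether these counts differ from the shares was not tested. Klrc1, which encodes the NKG2A chain that pairs with CD94, had 3 peaks in each list, and Cd226, Klrb1b and Klrb1c were also in both. Hcst, which encodes the adaptor of NKG2D known as DAP10, had no peak, and Tyrobp, which encodes the adaptor DAP12, was in PTC only (11.4), as was Klra1 (2.04), while Klra7 and Ncr1 were in control only. The Klra genes are close copies of each other, so the assignment of their reads is uncertain. Of the ligands, H2-T23, which encodes the class I molecule that presents to CD94 and NKG2 receptors, and Ulbp1, a ligand of NKG2D, were in both lists, and the other 6 had no peak, among them Cdh1, the cadherin bound by Klrg1. The chemokine receptor genes Cxcr6, Cxcr3 and Ccr1 were in both lists. Of the other chemokines, Ccl3 and Ccl9 were in both lists, Xcl1 was in PTC only (2.39) and Ccl4 had no peak.

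**Figure D4:**
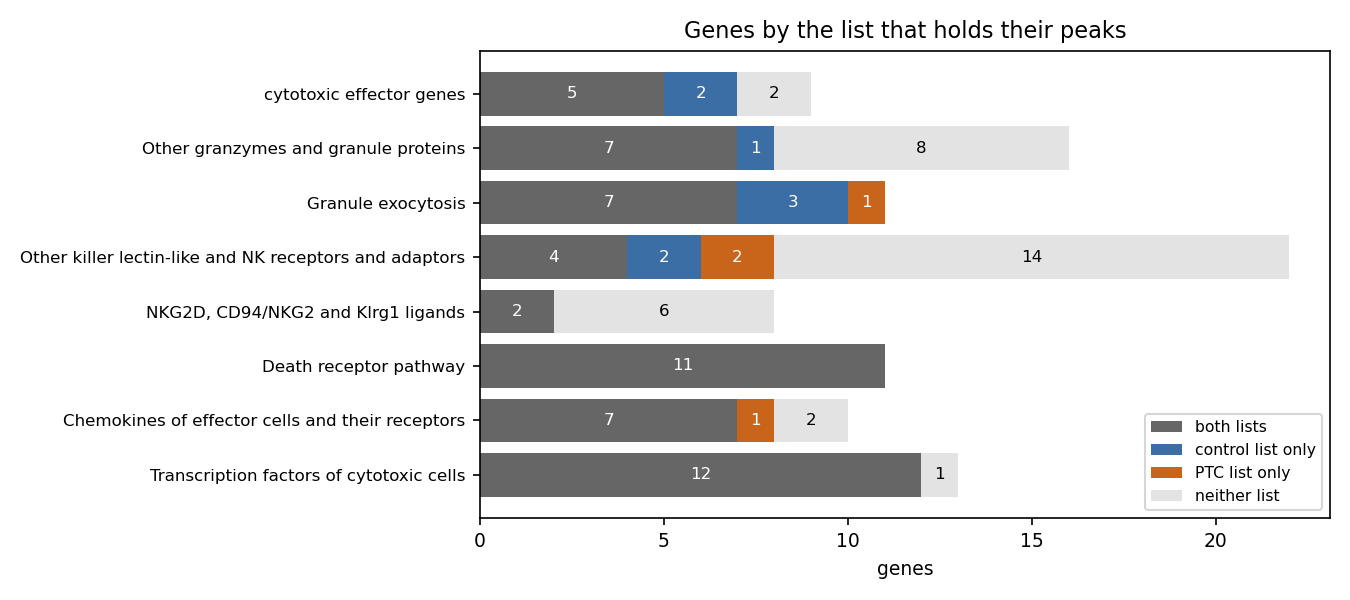
Number of genes with peaks in both lists (dark grey), in the control list only (blue), in the PTC list only (orange) and in neither (light grey), for the 9 cytotoxic effector genes and 7 lists of related genes. The death receptor genes (11 of 11) are all in both lists, and the receptor list has most genes without a peak (14 of 22).

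The labelled cell type was checked against markers. All 10 T cell markers, Cd4 and Cd8a among them, had peaks in both lists. Of 10 natural killer markers, which include Gzma, 6 had a peak: Klrb1c and Eomes in both lists, Ncr1 (−log10 FDR 2.45), Klra7 (4.19) and Gzma in control only, and Fcgr3 (7.95) in PTC only, while Klra8, Klra4, Klra9 and Klre1 had none. B cell markers (5 of 6) and myeloid markers (8 of 10, Tyrobp in PTC only) also had peaks, and none of 4 hepatocyte markers did. For comparison, 45.6% of all protein-coding genes had a peak. Among all listed genes, the lists shared 79.2%, while 12.5% had control peaks alone and 8.24% had PTC peaks alone. It was not tested whether marker lists of 4 to 10 genes differ from these shares. By its strongest peak, the B cell marker Cd79b had a −log10 p of 354 in control and 275 in PTC, and Ms4a1 had 221 and 137. The myeloid markers ran from 15.4 (Csf1r) to 177 (Mpeg1) in control and from 12.5 (Tyrobp) to 154 (Mpeg1) in PTC. The T cell markers ran from 4.74 (Cd3e) to 274 (Cd8b1) in control and from 11.7 (Cd3e) to 594 (Cd8b1) in PTC, so B cell and myeloid markers had peaks as strong by p-value as many T cell markers. S100a8 had 32.6 in control and 114 in PTC, S100a9 21.2 and 50.5, Cst3 20.7 and 87.2, and Cd14 16.5 and 93.7. Mpeg1 (177 and 154), Lyz2 (17.2 and 17.0) and Csf1r (15.4 and 14.9) were lower in PTC, and Itgam and Adgre1 had no peak. Each value describes a peak within its own list, so no change of the myeloid markers is read from them. T cells and natural killer cells share the genes described here, and the part of other cells in their peaks was not tested. In bulk RNA fewer cells of a type and less RNA per cell cannot be told apart, and the lists hold no expression values, so a gene without a peak may be unmethylated, little expressed or under the caller's threshold.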

How the data were processed

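Both peak lists were used as the authors deposited them. The submitters' processing notes name BWA 0.7.12, MACS2 2.1.0 and GRCm39; caller settings and pooling of samples are not stated. Per the file headers, each peak has a p-value, log p and log FDR scores (log10, within 0.02 of the p-value) and a fold enrichment (a linear ratio). Of the control and the PTC peaks, 99.8% each lay inside the gene of the same identifier in GENCODE M21 (GRCm38), so coordinates are read as GRCm38, unlike the notes.

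Exon blocks were compared on the same strand (at least 1 bp shared) with Python 3.11.15 and pandas 2.3.3. Each gene was placed on the transcript, protein-coding first, holding most of its peak bases. Regions are those of the block midpoint, and stop codon distances run along the exons from its first base. DRACH, GGAC and GGACT were searched on the transcript strand, so each GGACT is also counted as GGAC and DRACH. The functions were tested on simulated data. With 1 list per condition no test was possible.

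Genes and lists were chosen with earlier results of these data known. By rule the text names all 9 genes and, of the related lists, genes in 1 list only and up to 4 of the strongest in both. Other related genes (Fas, Ccl3, Ccl9, Cd4 and those without a peak) were named after their values were seen. Of 93 related symbols 2 had no identifier in the annotation. Some genes that the rule names are not reported here.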

Additional observations from a re-analysis of the deposited data

How the results depend on the processing

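Of 41 recomputed counts, 26 were within 1.5 times the main count and 15 were not. With −log10 FDR 5 or more required, 3 genes were in both (Gzmb, Prf1, Fasl), 1 in control only (Nkg7) and 1 in PTC only (Klrk1, whose control peak had 4.70), with 5 control and 5 PTC peaks. At a fold enrichment of at least 4 it was 3 in both (Prf1, Fasl, Klrk1) and 0 in control only, with 4 control peaks, since those of Gzma, Nkg7, Gzmb and Klrd1 and the Prf1 exon 2 peak have lower values. At equal list length 1 gene, Klrd1, moved to PTC only, a setting that removes weak control peaks alone. With 50% of each peak shared, or midpoints within 100 bp, 5 of 9 PTC peaks had a partner. Within 100 nt of the stop codon lay 2 control and 2 PTC midpoints. GGACT was in 4 control and 3 PTC peaks; the window around the midpoint gave 2 control peaks, and GGAC in place of GGACT gave 5 PTC peaks. No paired analysis was possible because the groups share no sample numbers and the lists hold no values per sample, and no replicate could be left out.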
